A study of Mus musculus with 44 samples.

Results

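Whole brains of mice fed a ketogenic diet (KD) for one week were compared with brains of mice on the control diet (CD) at 12 months of age. The comparison holds the 12 brain libraries of that age, 5 from CD mice (replicates 1, 4, 7, 13 and 16) and 7 from KD mice (replicates 2, 5, 8, 10, 11, 14 and 17), out of 44 libraries in the series. Members were taken by the group in the sample labels and by no measured value. All mice were C57BL/6 males, and the labels name no transgene or drug. Both diets supplied the same low share of calories as protein and were eaten ad libitum, and in the KD fat took the place of the carbohydrate. The other libraries come from mice of 26 months, 16 brains and 16 livers, which had alternated KD and CD by the week for the cyclic KD or had stayed on CD, and which were collected in a CD week. The study set the one-week brains beside these to compare the response to a short KD with that to a long intermittent one. Total counts per library were 9873884 to 12467965 in CD and 9883558 to 11776432 in KD, with 2.29% to 2.61% of counts from mitochondrial genes. Neither the labels nor the methods give a batch, cage, perfusion or dissection record.

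A diet of fat almost without carbohydrate lowers insulin, sends fatty acids to the liver and there yields the ketone bodies acetoacetate and β-hydroxybutyrate (BHB). Fatty acids enter the brain slowly as fuel, whereas ketone bodies cross the blood-brain barrier on monocarboxylate transporters, proton-coupled carriers that also move lactate and pyruvate. MCT1, the product of Slc16a1, is the carrier of brain endothelium, astrocytes and oligodendrocytes, and MCT2, from Slc16a7, is the high-affinity carrier of neurons. Inside mitochondria BHB is oxidised to acetoacetate by BDH1, activated by the transferase SCOT (Oxct1) and split by ACAT1 to acetyl-CoA.

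Marker genes of neurons, astrocytes, microglia and oligodendrocytes were present, and the summed levels of neuron, astrocyte and microglia markers overlapped between the diets. The summed level of 25 neuron markers was 10741 to 11783 CPM in CD and 9181 to 12760.0 CPM in KD, that of 20 astrocyte markers 7404 to 7755 CPM in CD and 6947 to 8252 CPM in KD, and that of 25 microglia markers 430.4 to 529 CPM in CD and 406 to 568.4 CPM in KD. Levels are counts per 1000000 counts of the library (CPM), with library totals scaled by the trimmed mean of M-values (TMM). The level of hindbrain markers, in contrast, varied widely. Hox genes, which are active in the caudal hindbrain and spinal cord and nearly silent further forward, summed to 77.5, 35.4, 0.262, 0.487 and 0.0938 CPM in CD replicates 1, 4, 7, 13 and 16, and to 131, 109.6, 4.54, 48.7, 0.487, 89.2 and 1.69 CPM in KD replicates 2, 5, 8, 10, 11, 14 and 17. A limit of 10 CPM, set after these values were seen, puts 2 CD and 4 KD libraries above it and 3 of each diet below it. It was applied to the sum over the Hox genes that were tested, which is mostly somewhat lower than the sums above and splits the 12 libraries in the same way. Of all genes tested, 49.4% had a log2 fold change (KD minus CD) above 0. All 15 Hox genes tested were above 0, with a median of 1.36, and so were all 21 tested markers of hindbrain neurons, with a median of 0.95. Dbh and Slc6a2, genes of noradrenergic neurons, were among them. Dbh was at 0.183, 0.307, 0.349, 0.162 and 0.0938 CPM in CD and from 0.292 to 4.45 with a median of 0.635 CPM in KD. In 6 of the 7 KD libraries hindbrain neuron markers summed to 135 to 412 CPM, while KD replicate 17 had 46.0 CPM, and the CD libraries had 51.2 to 156 CPM.

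Other markers of tissue composition varied too. Choroid plexus markers summed to 602 to 1518 CPM in CD and 304 to 1888 CPM in KD, with KD replicates 2, 11 and 14 below every CD library, and 1 of 23 tested members had a log2 fold change above 0 (median -0.30). Those of the cerebellum came in high and low libraries on both diets, at 1087 to 4456 CPM in CD and 1032 to 5026 CPM in KD. All 20 genes of oligodendrocytes and myelin had a log2 fold change above 0 (median 0.25), against 49.4% of all genes tested. Of the 20, 3 were higher at an unadjusted p under 0.05, against 1.49% of all genes. The median of the 20 was 0.58 in the libraries above the Hox limit and -0.052 in those below it. Among the myelin genes Gjb1, a connexin of myelin sheaths, showed a log2 fold change of 0.56 (SE 0.21), Trf, which encodes transferrin, of 0.53 (SE 0.18), and Enpp6 of 0.38 (SE 0.18). Gjb1 gave 0.071 below the Hox limit and 1.08 above it, and Enpp6 0.16 and 0.67. Hemoglobin and other red cell genes had log2 fold changes above 0 in 7 of 7 tested (median 0.66). Hba-a2 was at 16.9, 8.38, 9.78, 10.9 and 8.72 CPM in CD and from 12.2 to 24.9 with a median of 15.2 CPM in KD, and the groups overlapped. In RNA of whole brain, fewer cells of a type and less RNA per cell cannot be told apart. Markers of the striatum had log2 fold changes above 0 in 19 of 20 genes (median 0.38) and those of cortex and hippocampus in 4 of 20 (median -0.27). Cortex and hippocampus markers summed to 3531 to 4673 CPM in CD and 1918 to 5210 CPM in KD. KD replicates 5, 10, 11 and 14 lay below every CD library in this sum. Beside the results that follow, fitted values below and above the Hox limit are given for many of the genes whose value they moved, and the part of the other markers in these results was not tested except by the choroid plexus covariate. Reads of Hba-a2 can also come from its near-identical copy Hba-a1.

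**Figure D1:**
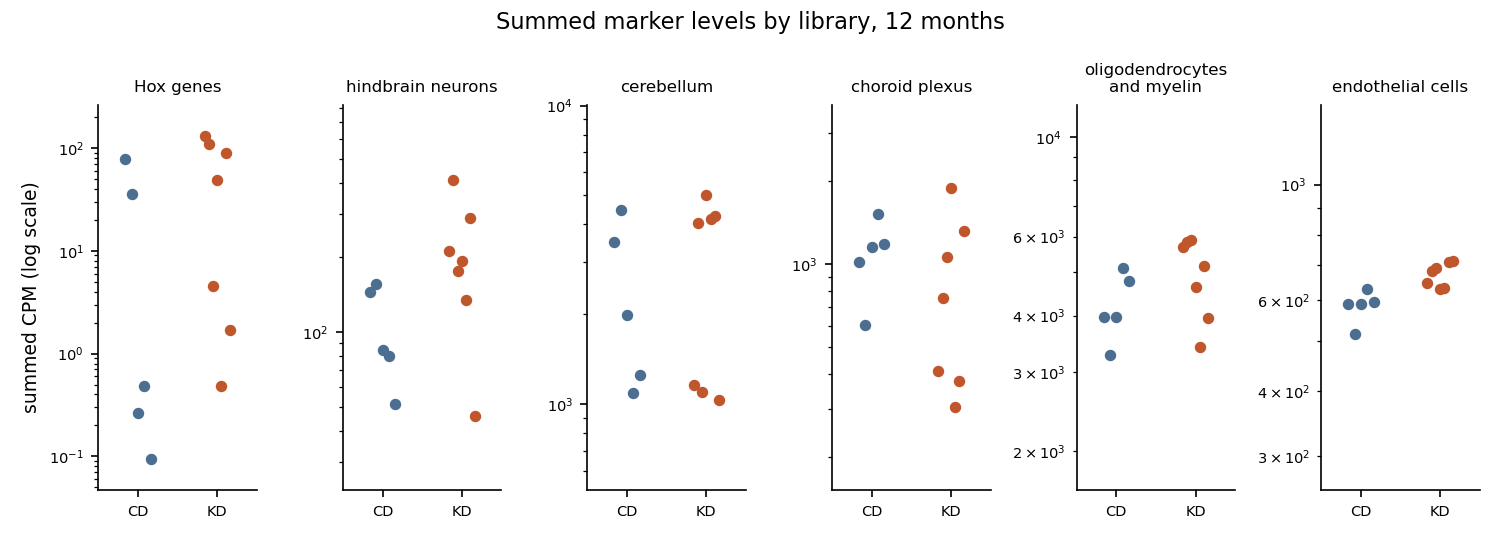
Summed level of 6 marker lists in each 12-month library, in CPM on a log scale that differs between panels, with 1 point per CD library (n = 5) or KD library (n = 7). Hox genes range from 0.0938 to 131 CPM and fall into high and low libraries on both diets, while the endothelial sums lie between 516 and 711 CPM.

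Across the transcriptome 1 difference after one week of KD stood out from the spread between mice. By the quasi-likelihood test of edgeR over 22079 genes, 1 gene was higher in KD at an adjusted p under 0.05 (0.00453% of genes tested) and 0 were lower (0%). DESeq2 and limma also called 1 gene higher and 0 lower. Without adjustment 328 genes (1.49%) were higher and 257 (1.16%) lower at p under 0.05. In 33 genes (0.149%) all 7 KD libraries lay above all 5 CD libraries, and in 25 genes (0.113%) they lay below. The median log2 fold change of all genes was -0.0012, and 49.4% of genes were above 0. The called gene was Slc16a1, and every other gene had an adjusted p of 1.

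**Figure D2:**
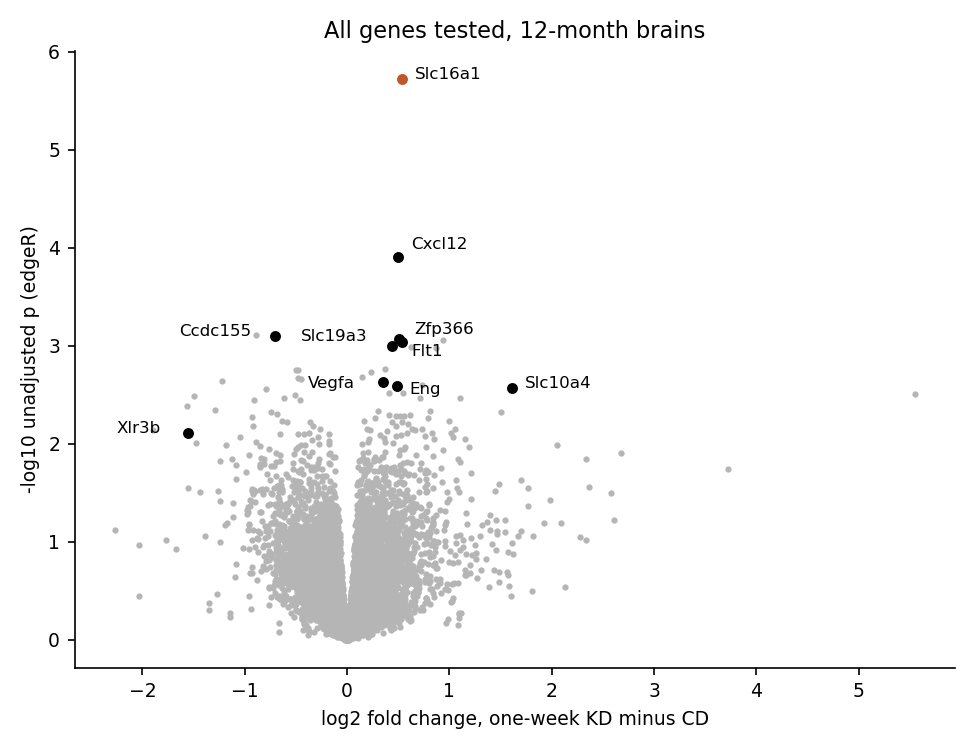
Each of the 22079 genes tested by its log2 fold change (one-week KD minus CD) and the −log10 of its unadjusted p from edgeR. Slc16a1, at a log2 fold change of 0.54, lies above all others, followed by Cxcl12 at 0.50.

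Slc16a1 (ENSMUSG00000032902, chr3:104638668-104658462 on the plus strand of GRCm38) encodes MCT1. It was measured at 42.2, 41.9, 48.3, 43.4 and 39.9 CPM in CD replicates 1, 4, 7, 13 and 16 and at 62.2, 64.7, 62.8, 60.9, 56.8, 68.4 and 62.98 CPM in KD replicates 2, 5, 8, 10, 11, 14 and 17. The lowest KD brain was above the highest CD brain. The means were 43.1 ± 3.15 CPM (SD, n = 5) in CD and 62.7 ± 3.52 CPM (SD, n = 7) in KD, a 1.45-fold increase or a log2 fold change of 0.54 (SE 0.0895) with an adjusted p of 0.0417 from edgeR. The step was present in libraries low and high in Hox genes. Below the Hox limit the CD libraries held 39.9 to 48.3 CPM and the KD libraries 56.8 to 63.0 CPM, and above it 41.9 to 42.2 CPM and 60.9 to 68.4 CPM. The change was a log2 fold change of 0.48 to 0.61 over 24 alternative fits, but the call across all genes was close to its threshold. It was lost with the Hox genes as a covariate (adjusted p = 0.274 from edgeR), with the choroid plexus markers as a covariate (0.143), with scaling by total counts alone (0.167), without a filter (0.118) and in 10 of 12 fits that left out 1 library, those without CD replicate 7 or KD replicate 11 keeping it (adjusted p from 0.0412 to 0.331). The predicted genes Gm43581 and Gm43585 overlap Slc16a1 on the same strand. Gm43581, chosen after its value was seen, stood at 3.49 to 7.31 CPM with a log2 fold change of 0.27 (SE 0.19), or 0.043 below the Hox limit and 0.52 above it.

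**Figure D3:**
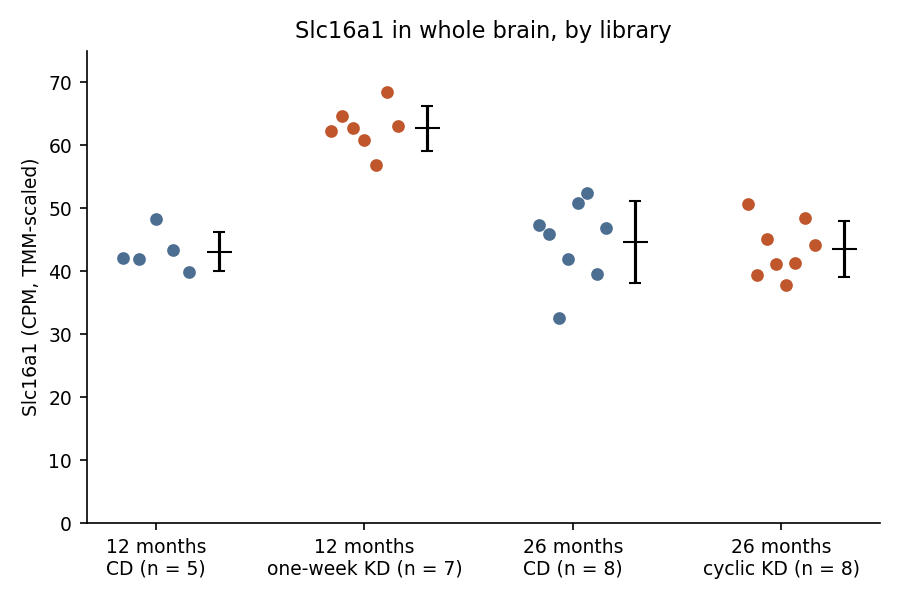
Slc16a1 in CPM in each of the 28 brain libraries, with the mean and SD of each group beside its points. The 7 brains after one week of KD lie between 56.8 and 68.4 CPM, above the 5 CD brains of the same age (39.9 to 48.3 CPM) and above both 26-month groups (32.5 to 52.4 CPM).

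Upstream sequences of Slc16a1 and of the next genes by p, Cxcl12 and Flt1, are shown because these 3 named genes had the smallest p among those higher in KD. Each is the stretch of 250 bases before the RefSeq start in GRCm38.p6, written 5′ to 3′ on the strand of the gene, with matches in capitals to CACGTG (the E-box palindrome), ACGTG (the core of the hypoxia response element), AGGTCA (the core repeat of nuclear receptor elements) or TATAAA (the TATA box), searched on both strands.
Slc16a1, chr3:104638414-104638663, plus strand: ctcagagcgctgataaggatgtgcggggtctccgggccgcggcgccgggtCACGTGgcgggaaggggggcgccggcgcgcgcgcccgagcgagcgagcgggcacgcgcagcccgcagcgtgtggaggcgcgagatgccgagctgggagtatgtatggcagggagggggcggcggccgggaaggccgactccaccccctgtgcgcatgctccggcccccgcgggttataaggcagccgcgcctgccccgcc
Cxcl12, chr6:117168285-117168534, plus strand: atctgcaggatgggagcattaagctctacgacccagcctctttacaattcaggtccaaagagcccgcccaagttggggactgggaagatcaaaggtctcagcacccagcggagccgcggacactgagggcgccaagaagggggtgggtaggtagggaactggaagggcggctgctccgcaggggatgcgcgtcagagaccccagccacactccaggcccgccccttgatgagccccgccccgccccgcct
Flt1, chr5:147726012-147726261, minus strand: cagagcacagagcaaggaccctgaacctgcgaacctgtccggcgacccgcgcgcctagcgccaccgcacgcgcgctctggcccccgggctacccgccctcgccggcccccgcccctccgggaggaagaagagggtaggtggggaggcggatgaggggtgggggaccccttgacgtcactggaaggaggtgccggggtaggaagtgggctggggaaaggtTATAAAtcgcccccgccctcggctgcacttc
The Slc16a1 window held 1 CACGTG, 200 bases before the start, and both of its ACGTG matches lie inside that palindrome. The Flt1 window held 1 TATAAA, 31 bases before the start, and the Cxcl12 window none of the 4 motifs. Over 32817 windows of this length CACGTG occurred in 6.02%, ACGTG in 16.6%, AGGTCA in 14.03% and TATAAA in 12.4%. A match is a run of letters and not a measured site.

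None of the other monocarboxylate transporters passed the test. Of 16 members of this list 15 were tested, and the remaining 14 had log2 fold changes from -0.30 to 0.27 with no unadjusted p under 0.05. Of the 15, 8 took the other sign in some alternative fit. Slc16a7, for the neuronal carrier MCT2, was at 109, 125, 122, 110.1 and 128 CPM in CD and from 72.5 to 132 with a median of 112 CPM in KD. Its log2 fold change was -0.22 (SE 0.16), and the 3 lowest KD brains, replicates 5, 10 and 14, were all above the Hox limit, where the value was -0.39, against -0.0048 below it. KD replicates 5, 10 and 14 also held the least cortex and hippocampus markers, at 1918, 2321 and 2147 CPM against 3531 to 4673 CPM in CD. Neuron markers in these brains summed to 9211, 9181 and 9491 CPM, against at least 10741 CPM in CD. KD replicate 2, with the highest Hox sum, held 4286 CPM of cortex and hippocampus markers. Slc16a3, which encodes the lactate exporter MCT4 of astrocytes, was at 3.68 ± 0.556 CPM (SD, n = 5) in CD and 3.88 ± 0.511 CPM (SD, n = 7) in KD with a log2 fold change of 0.075 (SE 0.15) that turned to -0.092 in the libraries below the Hox limit. Per kilobase of exon, Slc16a1 stood at 9.74 CPM in CD, beside 10.1 CPM for Slc16a7 and 0.692 CPM for Slc16a3, and in KD these levels were 14.2, 8.63 and 0.729 CPM. Slc16a6, which overlaps Amz2 and Arsg on the opposite strand, showed a log2 fold change of -0.20 (SE 0.11) and Slc16a8, the MCT3 of retina and choroid plexus epithelia, one of -0.24 (SE 0.21). Slc16a5, Slc16a9 and Slc16a11 had values of 0.27, 0.22 and 0.24, and above the Hox limit of 0.17, 0.052 and 0.066. That of Slc16a6 was -0.32 below the limit and -0.03 above it. Slc16a4, Slc16a10, Slc16a12, Slc16a13, Slc16a14 and the sodium-coupled carrier gene Slc5a12 lay between -0.30 and 0.061. Slc5a8 was below the filter with at most 4 counts.

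MCT1 reaches the membrane bound to basigin. Bsg, its gene, was at 153, 142, 149, 159 and 139 CPM in CD and from 143 to 169 with a median of 155 CPM in KD, overlapping groups with a log2 fold change of 0.079 (SE 0.0598), or 0.0016 below the Hox limit and 0.15 above it. The 7 tested partners and receptors of monocarboxylates included 0 genes at an unadjusted p under 0.05 and ranged from -0.17 to 0.15, and 3 of them (Emb, Hcar1 and Ldhb) took the other sign in some alternative fit. Ldha, the lactate dehydrogenase subunit that favours lactate, showed a log2 fold change of -0.17 (SE 0.16), with -0.011 below the Hox limit, while Ldhb, the mitochondrial pyruvate carrier genes Mpc1 and Mpc2, the alternative chaperone gene Emb and the lactate receptor gene Hcar1 lay from -0.047 to 0.15. The BHB receptor gene Hcar2 had at most 3 counts in any 12-month library and was not tested.

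Among the enzymes of ketone body metabolism, 7 are given here, and none of these had an unadjusted p under 0.05. For Oxct1, the gene of the mitochondrial transferase SCOT, the CD brains held 220.0, 224, 205, 213 and 225 CPM and the KD brains from 187 to 231 with a median of 199 CPM, a log2 fold change of -0.088 (SE 0.0722), with -0.0058 below the Hox limit and -0.16 above it. Bdh1 stood at 29.9 ± 1.22 CPM (SD, n = 5) and 30.9 ± 1.47 CPM (SD, n = 7), a log2 fold change of 0.046 (SE 0.0591). Acat1, Acat2, Aacs, Hmgcll1 and Bdh2 had values from -0.11 to 0.022, and all 5 took the other sign in some alternative fit.

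PPARα is the fatty acid sensor that turns on ketogenic and fat-oxidising genes in fasted liver. Of 35 tested PPAR targets, 3, among them Angptl4 and Acadl, were higher at an unadjusted p under 0.05 and 0 lower, against 1.49% and 1.16% of all genes. Of the 35, 22 were above 0, against 49.4% of all genes, and the median was 0.074. Angptl4, a secreted inhibitor of lipoprotein lipase, was at 0.915, 1.02, 1.66, 1.298 and 1.501 CPM in CD and from 1.45 to 3.18 with a median of 2.27 CPM in KD, with only KD replicate 10 (1.45 CPM) inside the CD range. Its log2 fold change was 0.83 (SE 0.29) with an unadjusted p of 0.00785. Acadl, the long-chain acyl-CoA dehydrogenase of mitochondria, had 23.3, 25.2, 24.8, 26.8 and 24.6 CPM in CD and from 26.4 to 30.6 with a median of 29.4 CPM in KD, a log2 fold change of 0.22 (SE 0.0765) with an unadjusted p of 0.009. It was the only one of 28 tested genes of mitochondrial fatty acid oxidation at that limit. Cpt1a, the gate for entry of fatty acids into mitochondria, showed a log2 fold change of 0.19 (SE 0.0946), from 28.6, 25.9, 29.2, 28.2 and 29.5 CPM in CD and from 24.8 to 38.7 with a median of 32.99 CPM in KD. For Cpt1a it was 0.013 below the Hox limit and 0.35 above it. Txnip, a glucose-responsive inhibitor of thioredoxin and glucose uptake, touched between the diets (12.0 to 16.5 CPM in CD and 16.5 to 19.0 CPM in KD). Its nearest values were 16.464 CPM in CD and 16.466 CPM in KD, a gap too small to separate the groups. The log2 fold change of Txnip was 0.31 (SE 0.23) with an unadjusted p of 0.175 from edgeR, in a fit whose spread includes the 26-month brains. Of the receptors themselves, Ppara showed a log2 fold change of -0.28 (SE 0.14) and Pparg one of -0.48 (SE 0.23). None of these genes passed the adjusted test.

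Genes for the main routes of glucose use gave no call. Of 33 tested genes of glucose transport and glycolysis, 0 in either direction had an unadjusted p under 0.05, and the median was -0.0068. Slc2a1, for the glucose carrier GLUT1 of the blood-brain barrier, was at 58.3, 65.4, 68.2, 73.3 and 69.03 CPM in CD and from 68.3 to 90.6 with a median of 76.04 CPM in KD with a log2 fold change of 0.24 (SE 0.16), or 0.16 below the Hox limit and 0.37 above it, and KD replicate 11 (68.3 CPM) lay inside the CD range of 58.3 to 73.3 CPM. In the group of pyruvate dehydrogenase and the citric acid cycle 1 of 29 genes was higher at that limit and 0 lower, against 1.49% and 1.16% of all genes. This was Ogdh, a subunit of the 2-oxoglutarate dehydrogenase complex, at 0.10 (SE 0.0469), with 0.012 below the Hox limit and 0.21 above it. The 72 nuclear genes of the respiratory chain had a median of -0.02 with 28 above 0, against 49.4% of all genes, and 0 had an unadjusted p under 0.05. Cholesterol synthesis genes, which neurons and glia run locally, had 5 of 26 above 0, against 49.4% of all genes, with a median of -0.063, again with 0 at that limit.

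**Figure D4:**
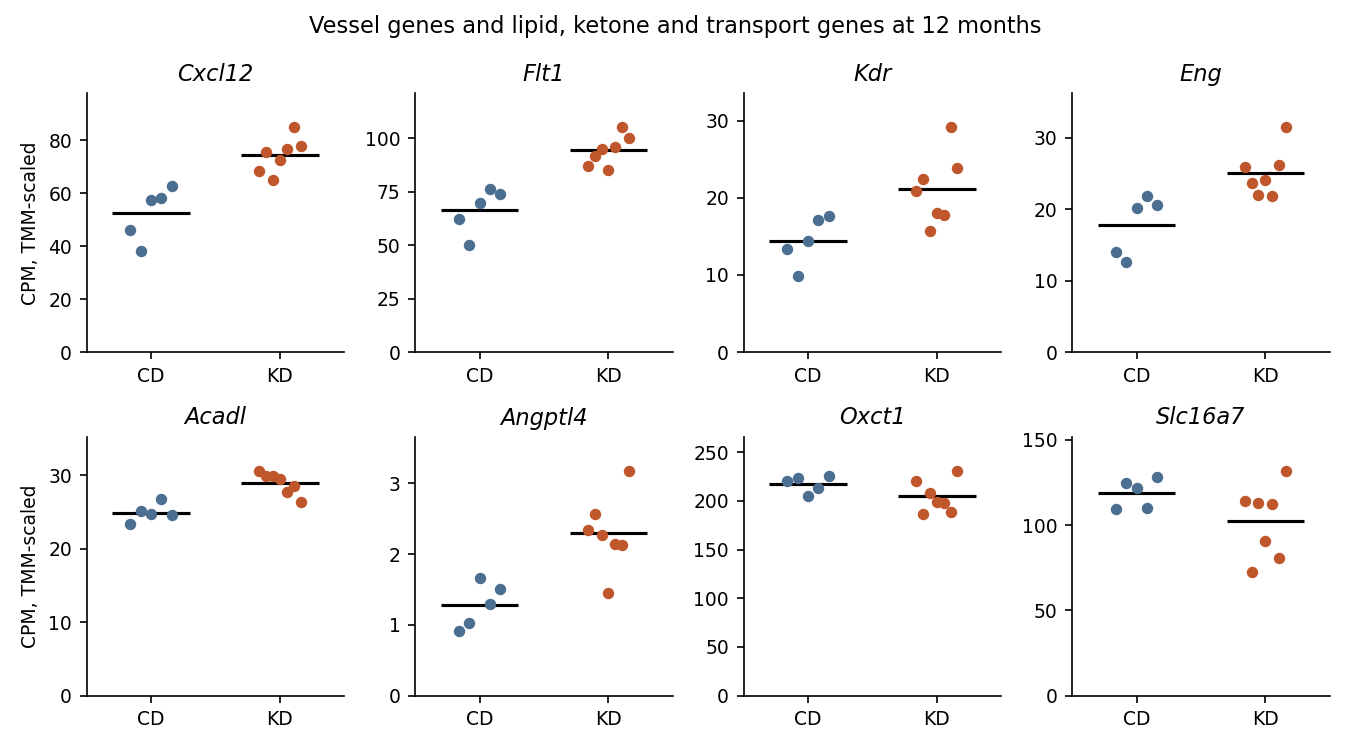
CPM of 8 genes in each 12-month library, 1 point per mouse (5 CD, 7 KD), with a line at each group mean and every axis starting at 0. Cxcl12, Flt1 and Eng do not overlap between the diets, whereas Oxct1 (205 to 225 CPM in CD, 187 to 231 CPM in KD) and Slc16a7 do.

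Behind Slc16a1, the genes with the smallest p included several genes of blood vessels. Vessel growth runs on VEGF-A, which signals through the receptor VEGFR2 (Kdr) on endothelial cells and is held back by VEGFR1 (Flt1), a receptor that binds it tightly and signals weakly. Of 60 tested genes of angiogenesis, 10 were higher at an unadjusted p under 0.05 and 0 lower, against 1.49% and 1.16% of all genes, and 4 had all KD brains above all CD brains, against 0.149%. The list median was 0.14 with 43 genes above 0, against 49.4% of all genes. None passed the adjusted test, and since the study named this theme from the same libraries, the count is not independent evidence of its direction.

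The ligand Vegfa was at 62.4, 69.9, 75.5, 67.2 and 65.8 CPM in CD and 82.1, 92.8, 80.7, 74.4, 78.1, 125 and 74.8 CPM in KD. KD replicate 14 stood apart at 125 CPM, and 2 KD brains (74.4 and 74.8 CPM) lay under the highest CD brain. The log2 fold change of Vegfa was 0.35 (SE 0.10), and over the fits that left out 1 library it was 0.24 to 0.39. It was 0.17 below the Hox limit and 0.50 above it. Flt1 (ENSMUSG00000029648, chr5:147561604-147726011) was at 62.4, 50.002, 69.8, 76.2 and 73.7 CPM in CD and 87.2, 91.5, 95.1, 85.2, 95.8, 105 and 100.2 CPM in KD without overlap, a log2 fold change of 0.51 (SE 0.13) with an unadjusted p of 0.000857. Kdr, named after its value was seen, had 13.4, 9.82, 14.4, 17.1 and 17.6 CPM in CD and from 15.7 to 29.1 with a median of 20.8 CPM in KD and a log2 fold change of 0.54 (SE 0.17), with 0.23 below the Hox limit and 0.96 above it. Below the Hox limit Kdr ranged from 14.4 to 17.6 CPM in CD and from 15.7 to 23.9 CPM in KD, and above it from 9.82 to 13.4 CPM and from 18.05 to 29.1 CPM.

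Cxcl12 (ENSMUSG00000061353, chr6:117168535-117181367), a chemokine of endothelial and stromal cells that guides vessel and stem cells through its receptor CXCR4, followed Slc16a1 by p. Its CPM were 45.9, 38.3, 57.4, 57.98 and 62.7 in CD and 68.5, 75.5, 64.9, 72.7, 76.5, 84.8 and 77.7 in KD, with the highest CD brain under the lowest KD brain. The log2 fold change was 0.50 (SE 0.11) with an unadjusted p of 0.000125. Below the Hox limit the ranges were 57.4 to 62.7 CPM in CD and 64.9 to 77.7 CPM in KD, and above it 38.3 to 45.9 CPM and 68.5 to 84.8 CPM. Both CD brains above the Hox limit were thus the lowest of the 12, and the log2 fold change ranged from 0.31 to 0.84 over all alternative fits. Eng, for the TGF-β co-receptor endoglin of endothelium, did not overlap by a narrow margin, with 13.99, 12.6, 20.2, 21.8 and 20.6 CPM in CD and from 21.8 to 31.4 with a median of 24.1 CPM in KD, the nearest values being 21.82 and 21.84 CPM, at a log2 fold change of 0.48 (SE 0.15). For Eng the CD brains above the Hox limit were the lowest of the 12, and the log2 fold change was 0.27 below that limit and 0.91 above it. Fpgs overlaps Eng on the opposite strand at 2.72 to 6.24 CPM. For Slc19a3, a thiamine transporter, the CD brains held 4.21, 2.86, 4.54, 3.89 and 4.03 CPM and the KD brains from 4.55 to 5.92 with a median of 5.297 CPM, without overlap and at a log2 fold change of 0.44 (SE 0.12). Zfp366, a zinc finger gene known from dendritic cells, had 5.76 to 8.27 CPM in CD and 9.07 to 12.0 CPM in KD, a log2 fold change of 0.53 (SE 0.14).

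The 26 endothelial markers, some of which are also on the angiogenesis list, had a median of 0.14 with 22 above 0, 4 higher at an unadjusted p under 0.05, against 1.49% of all genes, and 4 with all KD brains above all CD brains, against 0.149% (Flt1, Eng, Slc19a3 and Vwf). Their summed level was 588, 516, 589, 629 and 594 CPM in CD and 647, 681, 691, 630.0, 633, 708 and 711 CPM in KD, so that the groups did not overlap but lay next to each other, with 629 CPM in CD replicate 13 and 630.0 CPM in KD replicate 10. The defining genes Cldn5, of tight junctions, Cdh5, for VE-cadherin, and Pecam1, named for that reason after their values were seen, showed log2 fold changes of 0.35 (SE 0.18), 0.21 (SE 0.14) and 0.13 (SE 0.19), and in each the diets overlapped. Below and above the Hox limit the values were 0.20 and 0.62 for Cldn5 and -0.0088 and 0.39 for Pecam1, whose sign turned. Vwf, named for its lack of overlap, was at 16.7 to 21.5 CPM in CD and 23.1 to 31.3 CPM in KD. It showed a log2 fold change of 0.45 (SE 0.52), in a fit whose spread includes the 26-month brains. Median log2 fold changes of the endothelial list were 0.21 in the libraries above the Hox limit, 0.12 in those below it, and 0.20 with Hox genes as a covariate. For pericytes and smooth muscle 3 of 17 tested markers were higher at an unadjusted p under 0.05 and 0 lower, against 1.49% and 1.16% of all genes. The median of these markers was 0.068. Rgs5, the pericyte regulator of G protein signals, had 72.1, 69.1, 89.5, 95.5 and 88.4 CPM in CD and from 87.1 to 114 with a median of 97.6 CPM in KD with a log2 fold change of 0.27 (SE 0.0904), and Abcc9, the KATP channel subunit of pericytes, one of 0.38 (SE 0.15). Above the Hox limit the value was 0.46 for Rgs5 and 0.62 for Abcc9, and below it 0.20 and 0.13.

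Hedgehog and Notch are pathways that the study named from these same libraries, so that their counts are likewise not independent. Notch receptors are cut after they bind Delta or Jagged ligands on a neighbouring cell and then act in the nucleus. The median of 37 tested Notch genes was 0.052. Of them 3 were higher at an unadjusted p under 0.05 and 0 lower, against 1.49% and 1.16% of all genes. Those 3 are known from vessels, namely Notch3, the receptor of mural cells, Notch4, an endothelial receptor, and Dll4, the ligand of arterial and tip cells. Notch3 was at 17.01, 17.5, 20.95, 24.3 and 19.98 CPM in CD and from 22.5 to 31.4 with a median of 24.1 CPM in KD, a log2 fold change of 0.37 (SE 0.14) over all libraries, of 0.10 below the Hox limit and of 0.68 above it. Notch4 was at 7.77, 7.67, 8.99, 8.03 and 7.504 CPM in CD and from 9.34 to 11.6 with a median of 10.3 CPM in KD without overlap, a log2 fold change of 0.37 (SE 0.17). Dll4 was low, at 1.12 to 1.54 CPM in 4 CD brains, 2.71 CPM in CD replicate 7 and from 1.85 to 3.06 with a median of 2.12 CPM in KD. Its log2 fold change was 0.54 (SE 0.23) and reached 0.80 without CD replicate 7, and it was 0.064 in the libraries below the Hox limit and 1.152 in those above it. None of 24 tested Hedgehog genes had an unadjusted p under 0.05 in edgeR, 16 were above 0, against 49.4% of all genes, and the median was 0.039. The ligand Shh had 2.74, 2.56, 2.97, 3.08 and 2.25 CPM in CD and from 2.54 to 4.47 with a median of 3.14 CPM in KD, a log2 fold change of 0.34 (SE 0.19). Scube1, which helps release the ligand, gave a log2 fold change of -0.60 (SE 0.37), and Disp2, a relative of the ligand exporter, one of 0.18 (SE 0.13). Below the Hox limit these 3 values were 0.13, -0.39 and 0.02, and above it 0.51, -0.68 and 0.38.

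Inflammatory genes were a further group of this kind. Of 68 members of the inflammatory response list 51 were tested. The cytokine genes Il1b, Il6, Tnf, Ccl2 and Cxcl10 were below the filter, with at most 5, 4, 2, 2 and 10 counts in any 12-month library. Among the 51, 1 was higher at an unadjusted p under 0.05 and 0 lower, against 1.49% and 1.16% of all genes. Of these 51, 31 were above 0, against 49.4% of all genes, and the median was 0.025. The 1 gene was Il4ra, for the receptor of interleukin 4, at 5.305, 6.54, 5.15, 4.46 and 4.13 CPM in CD and from 5.03 to 8.88 with a median of 6.14 CPM in KD with a log2 fold change of 0.37 (SE 0.16), or 0.44 below the Hox limit and 0.23 above it. In the interferon response 0 of 49 genes were at that limit, with a median of 0.028. Its members with the smallest p went both ways, Igtp, an interferon-inducible GTPase that overlaps Irgm2 on the same strand, at -0.42 (SE 0.21), Bst2, which tethers budding viruses, at 0.69 (SE 0.36) (1.10 without CD replicate 16), and Trim25, a ubiquitin ligase of RNA sensing, at 0.24 (SE 0.13). The 25 markers of resting microglia had a median of 0.032 with 0 at the limit, and Trem2, a lipid receptor of microglia, stood at -0.41 (SE 0.22). Of 24 genes of microglial activation 1 was at the limit, the surface antigen gene Cd52 at 0.55 (SE 0.23), with a median of 0.11. Gfap, the filament gene of reactive astrocytes, showed a log2 fold change of 0.42 (SE 0.21), with KD brains from 83.2 to 269 CPM around CD brains from 96.9 to 199 CPM, and of 0.057 below the Hox limit and 0.53 above it.

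**Figure D5:**
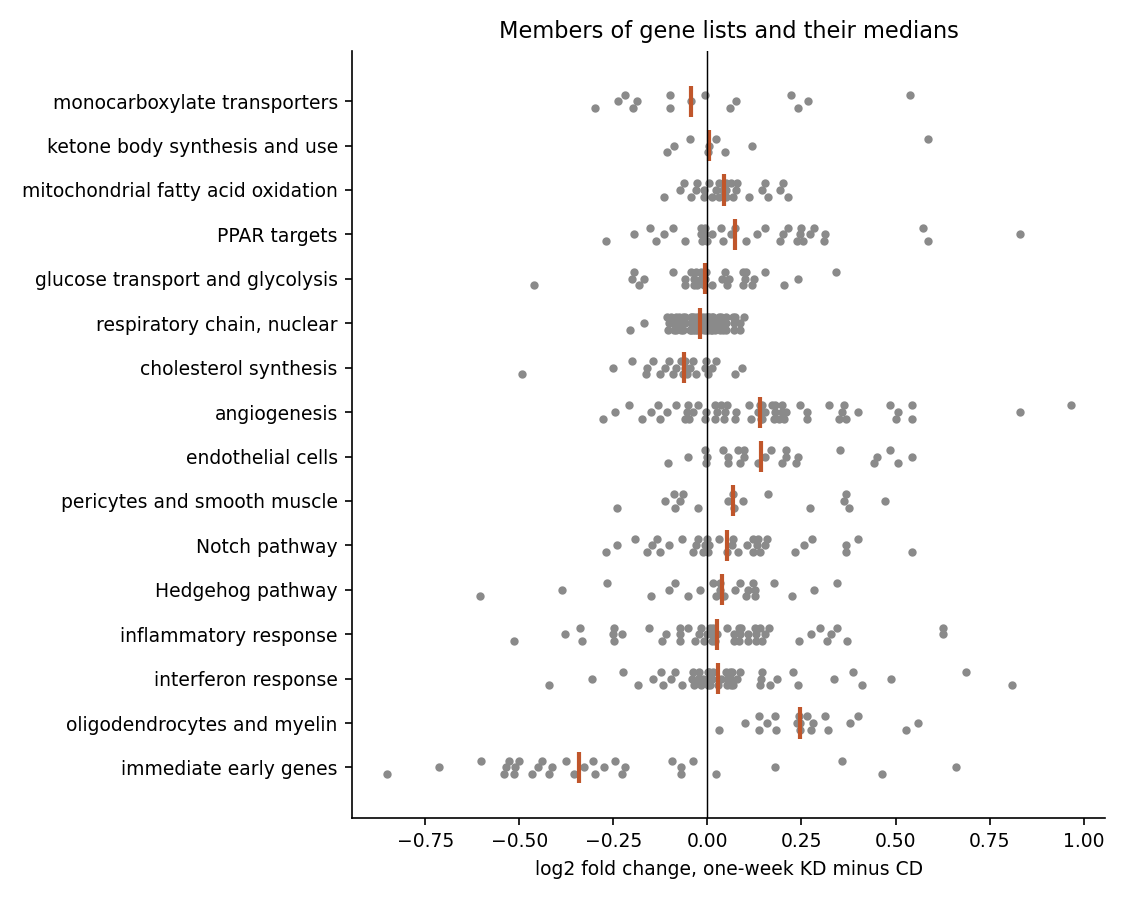
Log2 fold change (one-week KD minus CD) of each tested member of 16 gene lists, as grey points, with an orange bar at the list median and a line at 0. The medians of angiogenesis and endothelial genes are 0.14 each, that of myelin genes 0.25 and that of immediate early genes -0.34, while those of glucose, Hedgehog and inflammatory genes lie between -0.0068 and 0.039.

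Immediate early genes, which neurons switch on within minutes of activity, had mostly negative log2 fold changes. Of 32 tested, 5 were lower at an unadjusted p under 0.05 and 0 higher, against 1.16% and 1.49% of all genes, 5 were above 0, against 49.4% of all genes, and the median was -0.34. Their summed level was 1185.5 to 1649.5 CPM in CD and 654 to 1617.5 CPM in KD. It was lowest in KD replicates 5, 10 and 14, which also held the least cortex and hippocampus markers and the least neuron markers. KD replicate 11 (1174.1 CPM) lay just below the CD range, and KD replicates 2, 8 and 17 lay inside it. Whether tissue composition accounts for the lower values was not tested. Fos was at 9.42, 8.59, 20.5, 26.6 and 14.4 CPM in CD and 14.5, 8.19, 7.42, 9.65, 8.77, 13.1 and 6.35 CPM in KD, overlapping groups with a log2 fold change of -0.71 (SE 0.28). In the libraries below the Hox limit Fos was at 14.4 to 26.6 CPM in CD and 6.35 to 8.77 CPM in KD, while above it the value turned to 0.34, with 8.59 to 9.42 CPM in CD and 8.19 to 14.5 CPM in KD. Dusp1, a phosphatase that switches off MAP kinases and overlaps the more abundant Ergic1 on the opposite strand, showed a log2 fold change of -0.45 (SE 0.18), and Ier2 one of -0.54 (SE 0.23). Without CD replicate 13, the highest library, Fos gave -0.45 and Dusp1 -0.30.

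The remaining genes with the smallest p came from varied functions. Atpaf2, an assembly factor of ATP synthase, was at 18.5, 17.5, 18.3, 19.4 and 19.3 CPM in CD and from 19.9 to 23.9 with a median of 21.8 CPM in KD without overlap, a log2 fold change of 0.23 (SE 0.0666). It overlaps Gid4 on the opposite strand (62.8 to 71.7 CPM), and the sources used here do not say whether counting used strand. Brd3, a reader of acetylated histones, showed a log2 fold change of 0.15 (SE 0.0442). Slc10a4, a vesicle protein of cholinergic and monoaminergic neurons, had one of 1.61 (SE 0.49), from 1.01 to 4.38 CPM in CD and 1.80 to 12.7 CPM in KD. Ccdc155, known from meiotic chromosome movement, had the smallest p of the named genes lower in KD. It stood at 3.11, 4.601, 4.02, 3.24 and 3.19 CPM in CD and from 1.41 to 2.65 with a median of 2.41 CPM in KD without overlap and a log2 fold change of -0.70 (SE 0.19). Cetn2, a centrin of centrosomes, and Bphl, a serine hydrolase, were also without overlap, at -0.27 (SE 0.0921) and -0.18 (SE 0.0629). Cfap100 and Ccdc173, both linked to cilia, showed log2 fold changes of -0.42 (SE 0.15) and -0.36 (SE 0.12), beside a median of -0.36 over 16 tested markers of the ciliated ependymal cells. That median ran from -0.73 to 0.55 over the alternative fits. The summed level of ependymal markers was 51.6 to 75.8 CPM in CD and 29.4 to 112 CPM in KD. Mfsd8, a lysosomal membrane protein, stood at -0.46 (SE 0.14), Gemin6, of the complex that assembles spliceosomal particles, at -0.64 (SE 0.21), Filip1l at -0.48 (SE 0.14) (-0.26 below the Hox limit), Dse, which makes dermatan sulfate, at -0.37 (SE 0.13) (-0.21 above that limit), and Xlr3b at -1.56 (SE 0.54), or -2.54 below the Hox limit and -1.14 above it. Xlr3b belongs to a family of near-identical X-linked copies between which reads can be split. Cfap100 and Filip1l overlap genes of the opposite strand, Zxdc (50.2 to 56.0 CPM) and Cmss1 (5.42 to 8.40 CPM). Each of the genes in this group had an adjusted p of 1 from edgeR.

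The mice of 26 months on the cyclic KD, which share no control with the one-week group, gave other values for these genes. Slc16a1 was at 32.5 to 52.4 CPM in their 8 CD brains and 37.9 to 50.7 CPM in their 8 KD brains, a log2 fold change of -0.036 (SE 0.0759). The difference between both diet effects (cyclic KD at 26 months minus one-week KD) was -0.58 (SE 0.12), with an adjusted p of 0.412 from edgeR and an unadjusted p of 3.73e-05, and so did not pass across all genes. For Cxcl12 the log2 fold change at 26 months was -0.10 (SE 0.10) and the difference -0.60 (SE 0.15). Flt1 gave -0.20 (SE 0.11) and -0.71 (SE 0.18) and Eng -0.23 (SE 0.12) and -0.71 (SE 0.19). In Rgs5 the values were -0.27 (SE 0.077) at 26 months and -0.54 (SE 0.12) for the difference, which had an adjusted p of 0.719. All of these genes were chosen by a small p, with a higher level in KD, in the one-week comparison. That comparison is subtracted in the difference, so the choice itself favours negative differences, and they are not independent evidence. Over all genes edgeR called 0 in either direction for the cyclic KD and 0 for the difference, where 999 and 998 genes had an unadjusted p under 0.05. The libraries of the 2 ages also differed in other ways. The predicted gene Gm10800 took 0.000462% to 0.0017% of counts at 12 months and 0.0347% to 1.22% at 26 months. Genes with at least 1 count numbered 30019 to 31181 at 12 months and 31438 to 44376 at 26 months. Age, the length of feeding, the diet in the week of collection and these traits of the libraries all separate the groups and cannot be told apart.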

How the data were processed

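RNA of 28 brain libraries was analysed, 12 of them from the one-week comparison. RNA was extracted with a Direct-zol kit, depleted of ribosomal RNA, and made into libraries with KAPA RNA HyperPrep. The authors trimmed reads with Trimmomatic, aligned them with STAR to GRCm38 and deposited 1 matrix of gene counts attributed to RSEM, whose values are whole numbers without normalization (tool versions and the strand setting of counting are not given in the sources used here). Total counts were 9873884 to 12467965 in the 12 libraries.

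Testing used edgeR 4.0.16 (quasi-likelihood, R 4.3.3) over all 28 brains with 4 groups by age and diet, filterByExpr, TMM scaling and Benjamini-Hochberg adjustment at 0.05 over 22079 genes of 54446. The 26-month brains thus entered the estimate of spread. SE is the absolute log2 fold change divided by the root of F. The fitting script was tested on simulated data. No batch term was possible. The labels call libraries replicates of a group, and each is read as 1 mouse.

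Named genes were those called, the 10 with the smallest p in each direction with a mean log2 CPM above 1 (predicted genes and pseudogenes left out), all members of the transporter, partner and ketone lists, and the 3 with the smallest p of each other list. Of these a subset is given, and some list members that enter the counts are not reported here. Kdr, Cldn5, Pecam1, Cdh5, Vwf and Gm43581 were added after their values were seen. The comparison, the 50 lists and the tests were chosen with earlier results of these data known. Alternatives were DESeq2 1.42.0, limma 3.58.1, other scalings, filters and dispersions, the 12-month libraries alone, Hox or choroid plexus covariates, leaving out each library and, added after the data were seen, Hox strata. Upstream sequences came from RefSeq (GRCm38.p6).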

Additional observations from a re-analysis of the deposited data

Results flagged for a closer look

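Of 180 groups of values screened, 5 held a library far from the others of its group, where chance gives about 1 in 20. Vegfa, the endothelial growth factor, stood at 125 CPM in KD replicate 14 and at 74.4 to 92.8 CPM in the other KD brains. Dll4, the Notch ligand of tip cells, was at 2.71 CPM in CD replicate 7 and at 1.12 to 1.54 CPM in the other CD brains. The remaining values belong to genes of small nuclei. Slc6a2, the noradrenaline transporter, was at 8.38 CPM in KD replicate 8 and at most 1.74 CPM in the other KD brains. Hcrt, which encodes orexin, was at 13.5 CPM in CD replicate 13 and at most 0.188 CPM in the other CD brains. In the same library Pmch, for melanin-concentrating hormone, was at 21.2 CPM against at most 0.436 CPM.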

How the results depend on the processing

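The count of genes called was 1 in the main test and 0 under 16 of 24 alternatives, and where 1 gene was called it was Slc16a1, whose log2 fold change kept its sign throughout. The call was lost with total counts alone (log2 fold change 0.55, adjusted p = 0.167 from edgeR), without a filter (0.55, 0.118), with the Hox covariate (0.50, 0.274), with the choroid plexus covariate (0.52, 0.143), and in the strata chosen after the data were seen, with 12-month libraries under 10 CPM of Hox genes (0.48, 1) and over it (0.61, 0.838), each of which holds fewer samples. Leaving out 1 library gave 0 to 1 genes called, a Slc16a1 log2 fold change of 0.51 to 0.58 and an adjusted p of 0.0412 to 0.331, the call remaining without CD replicate 7 or KD replicate 11. It was kept with DESeq2 (4.22e-05), limma (0.00405), the 12 libraries alone (0.00597), RLE scaling (0.0254), at least 10 counts (0.0230) and robust dispersion (0.0367). Among the genes given with values of their own, signs turned for Slc16a3 (-0.092) and Pecam1 (-0.0088) under 10 CPM of Hox genes and for Fos (0.34), Hcrt (3.97) and Pmch (3.91) over it. Without CD replicate 13 Hcrt turned to 2.86 and Pmch to 2.48, against -3.26 and -3.06 at the other end of the fits that left out 1 library. Of the transporter, partner and ketone genes given by range, others turned in some fit too, so that 8 of 15, 3 of 7 and 5 of 9 tested members of those lists did so in all. The cause was not tested. Medians of lists moved by more than the spread in 14 of 1199 values. No paired analysis was possible because the CD and KD libraries of 12 months share no replicate number. At 9873884 to 12467965 counts a library, genes near 1 CPM rest on about 10 counts.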

Other observations

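Genes of the integrated stress response, which cells switch on when amino acids run short, gave single values apart from the lists described so far. Shmt2, the mitochondrial enzyme that feeds serine into one-carbon metabolism, was at 13.1, 15.2, 14.2, 12.6 and 12.4 CPM in CD and from 14.1 to 21.5 with a median of 17.7 CPM in KD, a log2 fold change of 0.36 (SE 0.15). Trib3, a pseudokinase induced by ATF4, showed one of 0.80 (SE 0.38), with 0.41 below the Hox limit and 1.54 above it, and Slc7a5, the large neutral amino acid transporter of the blood-brain barrier, one of 0.21 (SE 0.10), with 1 KD brain (replicate 10, 47.2 CPM) inside the CD range of 47.04 to 51.2 CPM. The list as a whole had a median of -0.023 over 32 tested genes. Of these, 2 were higher at an unadjusted p under 0.05 and 13 above 0, against 1.49% and 49.4% of all genes. Slc32a1, which loads GABA and glycine into vesicles, was at 50.9, 61.5, 49.1, 63.3 and 55.2 CPM in CD and from 53.2 to 90.7 with a median of 70.97 CPM in KD, a log2 fold change of 0.37 (SE 0.13), with 0.11 below the Hox limit and 0.54 above it. The 4 KD libraries above the Hox limit held 70.97 to 90.7 CPM of it and the 3 below 53.2 to 69.02 CPM. Hbb-bt, a beta globin gene, showed a log2 fold change of 0.78 (SE 0.40), next to Hba-a2 of the same red cell list. None of these genes passed the adjusted test of edgeR.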
